A study of Homo sapiens with 45 samples.

Results

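The genes described here are 45 genes of the lysosome and of its proton pump, the vacuolar H+-ATPase (V-ATPase), among the 29159 genes in the count tables. They were taken by symbol. Of these genes, 30 encode lysosomal membrane proteins, hydrolases and their cofactors, 12 encode subunits or accessory proteins of the V-ATPase, and 3 encode transcription factors of the MiT family (TFEB, TFE3 and MITF). All 45 symbols were in the tables. The genes were followed by RNA sequencing in 3 human neuroblastoma cell lines treated with palbociclib (PB), an inhibitor of the cyclin-dependent kinases CDK4 and CDK6.

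Each line gave 5 control libraries, for which the labels do not say whether DMSO was given, 5 libraries after 24 h in PB and 5 after a longer treatment, which lasted 7 days in the SK-N-BE(2)C line, named BE2C here as in the labels, and 5 days in the other two lines, IMR-32 and SH-SY5Y. This makes 9 groups and 45 libraries. PB was given at 1 µM in DMSO with the medium replaced every few days. The replicates of a line were cultures plated in independent experiments at different passages, so each line stands for 1 tumour and the 5 libraries of a group do not sample patients. BE2C carries MYCN amplification and loss of 1p, IMR-32 carries amplified MYCN and MEIS1 with loss of 1p, and SH-SY5Y carries mutant ALK without MYCN amplification. Control cells were harvested alongside the 24-h cells, so the effects of longer treatment and of longer culture cannot be told apart. Where the longer treatment is compared between BE2C and another line, the line and the length of treatment likewise cannot be told apart.

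Lysosomes degrade proteins, glycans and lipids with acid hydrolases, and the V-ATPase acidifies their lumen by turning a membrane ring in its V0 sector with ATP hydrolysed in its V1 sector. MiT factors bind E-box sites in the promoters of many lysosomal genes. mTORC1 phosphorylates these factors at the lysosome and holds them in the cytoplasm. CDK4 and CDK6 have also been described as kinases of TFEB in the nucleus, and PB is a weak base of the kind that collects in acidic compartments. These data measure RNA alone, not the location of a factor, the pH of an organelle or the activity of an enzyme.

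Promoter windows of 300 bases, from 250 before to 50 after the annotated start, were listed by RefSeq (GRCh38.p14) for 33 of the 45 genes. The E-box CACGTG, which reads the same on both strands, was found in 10 of the 33 windows (30.3%) and in 2548 of all 35116 windows of that length (7.26%). Its longer form TCACGTG, searched on both strands and containing the shorter motif, was found in 9 of the 33 windows (27.3%) and in 1303 of all windows (3.71%). All windows include those of genes not tested in these lines, so the sets are not alike. Of the genes tested in all 3 lines, 1001 had CACGTG in their window and 8732 did not. LAMP1, with 6 copies, is shown because its RNA was not called changed in any line, and GAA, MCOLN1 and ATP6V0D1 are shown because theirs rose in all 3 lines after longer treatment. Capitals mark each CACGTG with the bases that extend it to TCACGTG on either strand.
LAMP1 (chr13:113296989-113297288, plus strand): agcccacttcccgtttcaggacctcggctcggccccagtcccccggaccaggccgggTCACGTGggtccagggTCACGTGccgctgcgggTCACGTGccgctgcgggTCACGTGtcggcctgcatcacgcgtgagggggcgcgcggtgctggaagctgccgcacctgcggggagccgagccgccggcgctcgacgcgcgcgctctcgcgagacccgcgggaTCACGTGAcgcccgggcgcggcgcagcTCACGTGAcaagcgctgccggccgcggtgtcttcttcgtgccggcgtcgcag
GAA (chr17:80101331-80101630, plus strand): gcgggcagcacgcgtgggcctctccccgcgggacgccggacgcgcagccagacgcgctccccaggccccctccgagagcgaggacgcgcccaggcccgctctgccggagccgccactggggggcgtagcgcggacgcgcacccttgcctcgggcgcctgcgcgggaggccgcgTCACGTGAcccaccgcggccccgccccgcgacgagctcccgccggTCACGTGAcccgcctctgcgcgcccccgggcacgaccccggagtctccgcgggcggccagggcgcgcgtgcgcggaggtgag
MCOLN1 (chr19:7522374-7522673, plus strand): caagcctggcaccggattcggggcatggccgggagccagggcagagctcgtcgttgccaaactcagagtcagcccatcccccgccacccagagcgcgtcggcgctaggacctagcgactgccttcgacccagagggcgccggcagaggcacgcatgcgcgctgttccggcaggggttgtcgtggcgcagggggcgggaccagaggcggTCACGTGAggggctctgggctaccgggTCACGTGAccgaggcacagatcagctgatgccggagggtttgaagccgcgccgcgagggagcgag
ATP6V0D1 (chr16:67481108-67481407, minus strand): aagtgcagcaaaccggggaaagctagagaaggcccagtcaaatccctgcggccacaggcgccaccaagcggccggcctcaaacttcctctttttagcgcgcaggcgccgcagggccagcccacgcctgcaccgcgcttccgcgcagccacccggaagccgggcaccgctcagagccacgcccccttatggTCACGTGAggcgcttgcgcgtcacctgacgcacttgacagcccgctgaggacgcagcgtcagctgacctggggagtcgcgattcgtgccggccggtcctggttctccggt
CLN3, CTSA, ATP6V0B and CTSF held 2 copies of CACGTG each, and CTSD and CD63 held 1 each. No window of IDUA, IDS, ATP6V0A1, GUSB, TFEB, TFE3 or MITF held these letters. Of the 10 genes with the motif, 4 (GAA, MCOLN1, CTSF and ATP6V0D1) were called higher in all 3 lines after longer treatment, and 6 were called in none. Of 1001 genes with CACGTG in their window that were tested in all 3 lines, 5.39% were higher and 6.99% lower in all 3 and 39.2% were called in none. Of the 22 tested genes whose window lacked it, 4 (IDUA, IDS, SMPD1 and ATP6V0A1) were called higher and 1 (GUSB) lower in all 3 lines, and 5 were called in none. Of 8732 genes without it, 6.62% were higher and 6.63% lower in all 3 lines and 40.6% were called in none. These matches describe letters in a window, and binding was not measured.

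Library totals ranged from 13459219 to 25441812 counts (median 18494528), so that 1 CPM (the count of a gene scaled to a common library total) was about 18.5 counts. A gene was called higher or lower where edgeR's quasi-likelihood test gave a Benjamini-Hochberg adjusted p under 0.05 over all genes tested and the log2 fold change was beyond 0.5 in size. The test covered 14055 genes in BE2C, 14293 in IMR-32 and 14547 in SH-SY5Y. All 11 of the E2F target genes examined as a check of CDK4/6 inhibition, all of them genes of DNA replication and the cell cycle, fell at 24 h in each line, with medians of -1.62, -2.30 and -2.13 in BE2C, IMR-32 and SH-SY5Y. After the longer treatment 11, 9 and 11 of them were called below control, with medians of -1.37, -0.99 and -1.57. From 24 h to 5 days all 11 rose in IMR-32 (median 1.75) and 6 rose in SH-SY5Y (median 0.52), while in BE2C, to 7 days, edgeR and DESeq2 called 0 higher, 2 had an unadjusted p under 0.05 with a higher value, and MCM6 fell by 0.56 ± 0.18, a gene named after its value was seen. The part of this return in the differences between lines at the longer time was not tested. Adrenergic neuroblastoma markers were present in all lines: 7 or 8 of the 8 were above 1 CPM in all 5 libraries of every group. Their summed level in control, 24-h and longer-treated libraries was 2080 to 2390, 2930 to 3150 and 2570 to 3090 CPM in BE2C, 2020 to 3080, 3180 to 3980 and 2890 to 3530 CPM in IMR-32, and 3910 to 5160, 5720 to 7540 and 4070 to 5850 CPM in SH-SY5Y, so that it lay above all controls at 24 h in each line. By gene, 1, 4 and 2 of the 8 adrenergic markers were called higher at 24 h by edgeR and 1, 2 and 2 by DESeq2, and both called 0 lower, with 1, 0 and 1 at an unadjusted p under 0.05. At the longer time 0, 1 and 1 were called higher and 1 lower in each line, by DESeq2 as well, with 3 at an unadjusted p under 0.05 and a higher value in BE2C. TH rose by 2.36 ± 0.71 and DBH fell by 4.09 ± 0.49 in IMR-32, and ISL1 rose by 0.57 ± 0.07 in SH-SY5Y, these 3 named after their values were seen. The markers called lower in BE2C and in SH-SY5Y are not named here. Of all genes, 10.9%, 7.87% and 10.5% rose and 10.6%, 10.5% and 11.0% fell at 24 h. At the longer time 24.5%, 16.6% and 18.6% rose and 22.3%, 15.5% and 17.3% fell. The adrenergic numbers in BE2C at 24 h and in all lines at the longer time were near or below these shares. The summed level of the 9 mesenchymal markers in the tables was, in the same order, 625 to 852, 540 to 773 and 401 to 707 CPM in BE2C, 654 to 1220, 565 to 1020 and 289 to 476 CPM in IMR-32, and 1620 to 2070, 1340 to 1860 and 1120 to 1260 CPM in SH-SY5Y, with CD44 and FOSL1 near 0 in IMR-32. After the longer treatment 6 of 8 mesenchymal markers tested fell and 1 rose in BE2C (FN1, 1.57 ± 0.31), 5 of 6 fell in IMR-32, and 5 of 9 fell and 1 rose in SH-SY5Y (FOSL1, 1.20 ± 0.42), both named after their values were seen. In the same comparisons 22.3%, 15.5% and 17.3% of all genes fell and 24.5%, 16.6% and 18.6% rose. VIM fell by 0.93 ± 0.20, 1.32 ± 0.33 and 0.53 ± 0.11 and TWIST1 by 0.94 ± 0.09, 0.57 ± 0.11 and 1.13 ± 0.09 in the order BE2C, IMR-32 and SH-SY5Y. The part of this shift between marker sets in the results on lysosomal genes was not tested. In bulk RNA, fewer cells of one kind and less RNA per cell cannot be told apart.

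Replicate 5 of IMR-32 stood apart. Over all genes tested, its control library differed from the median of the other 4 by a median of 0.299 on the log2 scale, the largest such distance among the 45 libraries, and its 24-h library by 0.256, the second largest. Its mesenchymal marker sum was 1220 CPM in the control and 1020 CPM at 24 h, against 654 to 729 and 565 to 648 CPM in the other 4 replicates. IMR-32 results are therefore also given without replicate 5 in all 3 groups, a choice made after the data were seen. Without it, 10 of the 44 tested genes were called higher and 1 lower at 24 h (9.14% and 11.1% of all genes), and 12 higher and 4 lower at 5 days (18.1% and 16.9% of all genes). The 24-h call of IDS ended then, as did the 5-day calls of SCARB2 (0.45), CTSL (0.46) and ATP6V1A (0.50). From 24 h to 5 days the calls of PPT1 (-0.50) and ATP6V0A1 (0.47) ended and GLB1 became called lower (-0.54).

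CTSZ, which encodes cathepsin Z, lay between 0 and 0.223 CPM, with at most 4 counts in a library, and was not tested. The other 44 genes were tested in every line. More of them rose than fell in each comparison with control. At 24 h, 11 of 44 rose and 2 fell in BE2C, where 10.9% of all genes tested rose and 10.6% fell. In IMR-32, 11 rose and 1 fell, against 7.87% and 10.5% of all genes. In SH-SY5Y, 13 rose and 1 fell, against 10.5% and 11.0%. After the longer treatment, 20 rose and 2 fell in BE2C (24.5% and 22.3% of all genes), 15 rose and 4 fell in IMR-32 (16.6% and 15.5%), and 16 rose and 1 fell in SH-SY5Y (18.6% and 17.3%). The shares of the 44 that rose were 25.0%, 25.0% and 29.5% at 24 h, then 45.5%, 34.1% and 36.4% after the longer treatment. Leaving out 24-h replicate 2 of IMR-32 took the number that rose there at 24 h from 11 to 7.

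The median log2 fold change of the 44 genes was 0.28, 0.31 and 0.31 at 24 h in BE2C, IMR-32 and SH-SY5Y, where the median of all genes was 0.02, 0.06 and 0.04. After the longer treatment the median was 0.42, 0.23 and 0.37, beside 0.01, 0.00 and 0.01 for all genes. Over the 6 comparisons with control, 24 genes were called higher at least once, 4 were called lower at least once (TFEB is in both counts), and 17 were never called. These are 54.5%, 9.09% and 38.6% of the 44, against 34.6%, 34.6% and 35.1% of the genes tested in all 3 lines. At 24 h, 8 genes were called in the same direction in all 3 lines: IDUA, GAA, ARSA, SGSH, SMPD1, GRN and IDS rose and GUSB fell. The IMR-32 call of IDS ended with DESeq2 and that of GAA with no filter on low counts, and both ended without some single libraries. Of 12556 genes tested in all 3 lines, 2.84% rose and 5.81% fell in all 3 at 24 h. For the longer treatment there were 11: IDUA, ARSA, SGSH, ATP6V0A1, IDS, CTSF, MCOLN1, GAA, SMPD1 and ATP6V0D1 rose and GUSB fell, where 6.91% of the 12556 rose and 6.5% fell in all 3.

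**Figure D1:**
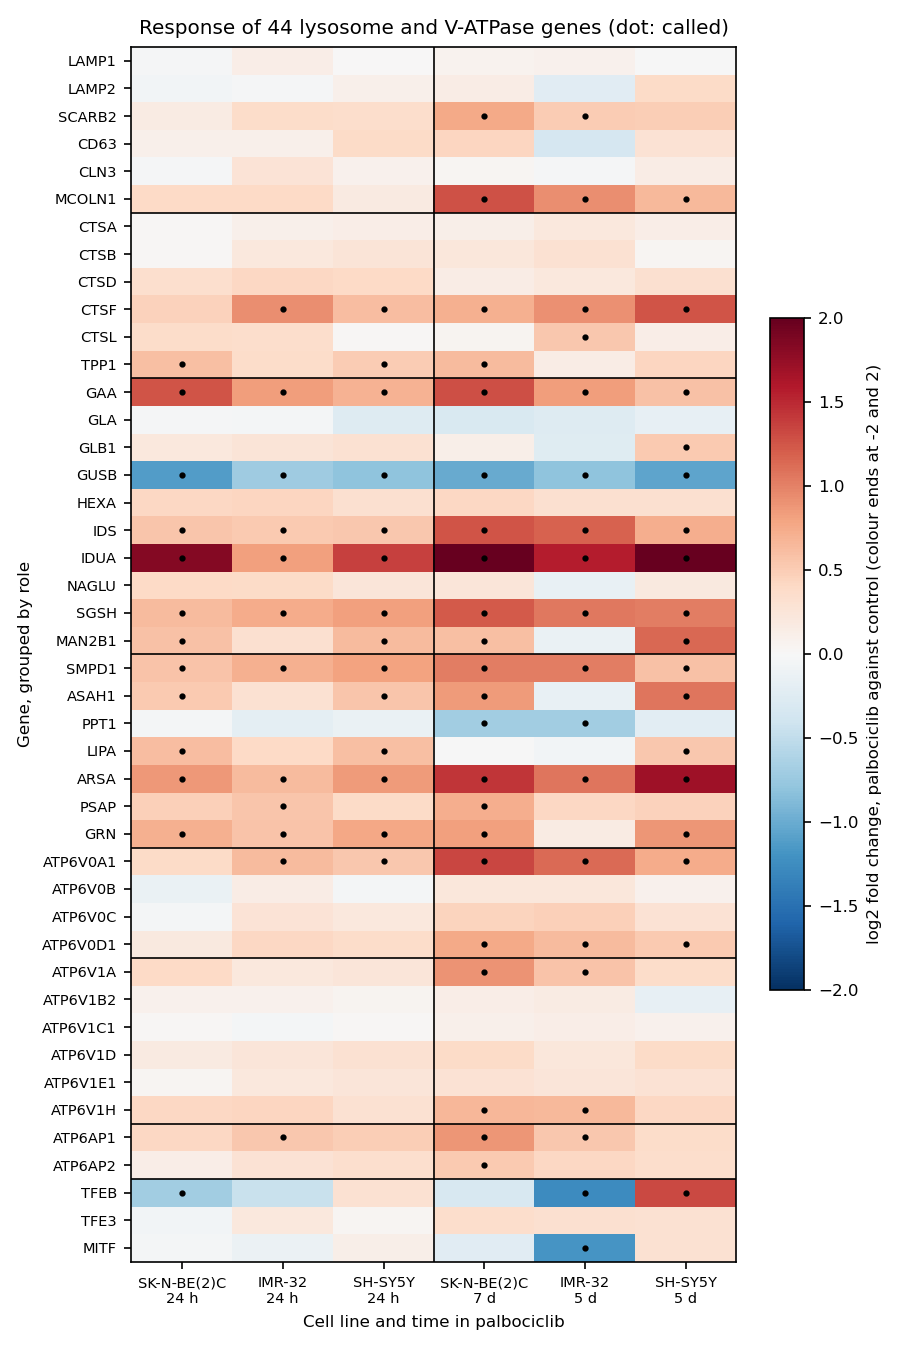
Log2 fold change of the 44 tested genes (rows, grouped by role between horizontal lines) in PB against control, with the 24-h comparisons in the left 3 columns and the longer ones in the right 3. Red is higher and blue lower, colours end at -2 and 2, and a dot marks a gene called changed. IDUA, ARSA and SGSH are red with a dot in all 6 columns, GUSB is blue with a dot in all 6, and TFEB is blue in IMR-32 and red in SH-SY5Y at 5 days.

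Of the lysosomal membrane protein genes, LAMP1 and LAMP2 were not called, while the channel gene MCOLN1 and the receptor gene SCARB2 rose at the longer time. edgeR called 0 of the 6 genes at 24 h in any line, DESeq2 also called 0, and 1, 3 and 3 of them had an unadjusted p under 0.05 in BE2C, IMR-32 and SH-SY5Y, all with higher values in PB. After longer treatment 2, 2 and 1 of the 6 rose, where 24.5%, 16.6% and 18.6% of all genes did, so that the numbers in BE2C and SH-SY5Y were near those shares. MCOLN1, which encodes the calcium channel mucolipin 1, rose by 1.28 ± 0.10 (log2, SE, adjusted p = 1.5e-08) in BE2C, 0.92 ± 0.09 (adjusted p = 2.3e-06) in IMR-32 and 0.65 ± 0.08 (adjusted p = 6.4e-07) in SH-SY5Y. SCARB2, the receptor that carries glucocerebrosidase to the lysosome, rose by 0.75 ± 0.11 in BE2C and 0.51 ± 0.07 in IMR-32, and had a log2 fold change of 0.50 ± 0.08 in SH-SY5Y, just under the limit, which it passed without control replicate 1, 2 or 5 or 5-day replicate 3 or 5 (0.50 to 0.54). The IMR-32 call of SCARB2 was lost without control replicate 3 (0.49), control replicate 5 (0.47) or 5-day replicate 5 (0.49), and with DESeq2 (0.49), RLE size factors (0.50) or no filter (0.49). LAMP1 and LAMP2, the main glycoproteins of the limiting membrane, lay between -0.06 and 0.14 at 24 h. At the longer time LAMP1 lay between -0.01 and 0.08, and LAMP2 was at 0.15 ± 0.04, -0.23 ± 0.07 and 0.38 ± 0.09 in the order BE2C, IMR-32 and SH-SY5Y. The tetraspanin gene CD63 was at 0.44 ± 0.08, -0.34 ± 0.09 and 0.29 ± 0.09, and CLN3, which encodes battenin, was between -0.03 and 0.15.

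Among the protease genes, CTSF rose in all 3 lines at the longer time, TPP1 rose in BE2C, and the cathepsins A, B and D were not called. Of the 6 tested, 1, 1 and 2 rose at 24 h, and 2, 2 and 1 rose after longer treatment, in BE2C, IMR-32 and SH-SY5Y. The shares of all genes that rose were 10.9%, 7.87% and 10.5%, then 24.5%, 16.6% and 18.6%, and the numbers for BE2C and SH-SY5Y at the longer time were near them. CTSF, which encodes the cysteine protease cathepsin F, rose at the longer time by 0.71 ± 0.13 (adjusted p = 0.00014), 0.92 ± 0.10 (adjusted p = 4.4e-06) and 1.25 ± 0.07 (adjusted p = 3.3e-10). At 24 h it rose by 0.93 ± 0.10 in IMR-32 and 0.62 ± 0.07 in SH-SY5Y, with 0.47 ± 0.13 in BE2C, where leaving out control replicate 1 (0.55) or 24-h replicate 2 (0.53) gave a call. TPP1, a tripeptidyl peptidase lost in a form of Batten disease, rose by 0.60 ± 0.08 at 24 h and 0.63 ± 0.08 at 7 days in BE2C. TPP1 was not called in IMR-32 (0.37 ± 0.08 at 24 h and 0.15 ± 0.08 at 5 days) or in SH-SY5Y at 5 days (0.43 ± 0.08). Its 24-h value in SH-SY5Y, 0.50 ± 0.08, lay at the limit, and leaving out any 1 of 8 libraries (control replicates 1, 3, 4 and 5 and 24-h replicates 1, 2, 3 and 5) brought it to between 0.47 and 0.50 and ended the call, as did DESeq2 (0.49), RLE size factors (0.48) and no filter on low counts (0.49). CTSD, the main aspartic protease, was at 0.34 ± 0.07, 0.41 ± 0.08 and 0.39 ± 0.08 at 24 h, and CTSB was between 0.02 and 0.31 in all 6 comparisons. CTSL was called only in IMR-32 at 5 days (0.53 ± 0.12), a call that ended without control replicate 2 (0.48), control replicate 5 (0.49) or 5-day replicate 3 (0.46). CTSA, which protects beta-galactosidase and neuraminidase, lay between 0.03 and 0.21. Exons of genes on the opposite strand cover 21.5% of CTSA and 24.0% of CTSD, and whether the counts used strand is not given.

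The glycan-degrading hydrolases included IDUA, the gene with the largest rise of the 44, and GUSB, the one gene called lower in all 6 comparisons with control. Of 10 genes, 5, 4 and 5 rose at 24 h, then 5, 4 and 6 after longer treatment, and 1 fell in every comparison, which was GUSB each time. The 4 in IMR-32 at 24 h included GAA and IDS, whose calls both ended without control replicate 3 or 24-h replicate 1, 2 or 4. Of all genes, 10.9%, 7.87% and 10.5% rose at 24 h, then 24.5%, 16.6% and 18.6% after longer treatment, and 10.5% to 22.3% fell, so that 1 of 10 was near or below the share that fell. The genes of this group called alike in all lines at both times were IDUA, IDS, SGSH, GAA and GUSB. Among the enzymes of heparan sulfate breakdown, NAGLU was called in no comparison with control and GUSB, beta-glucuronidase, fell.

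IDUA encodes alpha-L-iduronidase, which removes iduronic acid from heparan and dermatan sulfate and is lost in Hurler syndrome (GRCh37 chromosome 4, 980785 to 998352, plus strand). IDUA in BE2C was at 0.89, 0.57, 0.749, 0.817 and 0.703 CPM in control replicates 1 to 5, at 2.15, 2.32, 2.53, 2.84 and 3.73 CPM after 24 h and at 9.41, 14.6, 14.3, 16.6 and 13.5 CPM after 7 days of PB. IDUA in IMR-32 was at 15.7, 13, 16.6, 19.6 and 7.36 CPM in the controls, at 30.6, 17.2, 27.6, 29.6 and 18.9 CPM after 24 h and at 44.7, 46.5, 40, 56.4 and 29.3 CPM after 5 days. IDUA in SH-SY5Y was at 5.99, 5.52, 5.79, 4.39 and 5.34 CPM in the controls, at 16.1, 13.8, 13.2, 12.5 and 14.8 CPM after 24 h and at 37.5, 27.4, 19.9, 24.2 and 26.2 CPM after 5 days. In BE2C and SH-SY5Y the 24-h libraries were above all controls and the longer-treated libraries above all 24-h ones. In IMR-32 the 24-h libraries overlapped the controls and the 5-day libraries did not. The IDUA log2 fold change and its SE in BE2C were 1.83 ± 0.20 (adjusted p = 2.2e-06) at 24 h and 4.15 ± 0.20 (adjusted p = 5.5e-11) at 7 days. The IDUA log2 fold change in IMR-32 was 0.82 ± 0.23 (adjusted p = 0.014) at 24 h and 1.57 ± 0.23 (adjusted p = 7.1e-05) at 5 days. The IDUA log2 fold change in SH-SY5Y was 1.37 ± 0.14 (adjusted p = 2.5e-07) at 24 h and 2.25 ± 0.14 (adjusted p = 5.4e-10) at 5 days. IDUA was the one gene of the 44 called in the same direction in all 3 lines between 24 h and the longer time, at 2.32 ± 0.17 (adjusted p = 2e-08), 0.75 ± 0.23 (adjusted p = 0.019) and 0.88 ± 0.13 (adjusted p = 4.7e-05). Of 12556 genes tested in all 3 lines, 1.92% rose and 0.709% fell in all 3 over this step. A single gene of 44 is near the share that rose. The IDUA step in IMR-32 was not called without 24-h replicate 2 (0.66, adjusted p = 0.05) or 5-day replicate 4 (0.65, adjusted p = 0.056). The BE2C controls held 11 to 19 IDUA counts each, and 13.2% of the exonic bases of IDUA overlap SLC26A1 on the opposite strand.

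GAA encodes acid alpha-glucosidase, the enzyme lost in Pompe disease (GRCh37 chromosome 17, 78075332 to 78093680, plus strand). GAA in BE2C was at 68, 52.5, 68.8, 62.9 and 69.6 CPM in control replicates 1 to 5, at 141, 137, 164, 165 and 178 CPM after 24 h and at 118, 150, 201, 182 and 161 CPM after 7 days of PB. GAA in IMR-32 was at 144, 147, 121, 167 and 45.9 CPM in the controls, at 256, 226, 205, 262 and 128 CPM after 24 h and at 251, 250, 205, 239 and 170 CPM after 5 days. GAA in SH-SY5Y was at 104, 120, 115, 105 and 98.1 CPM in the controls, at 189, 176, 180, 167 and 173 CPM after 24 h and at 165, 154, 161, 194 and 174 CPM after 5 days. The treated libraries were above all controls in BE2C and SH-SY5Y at both times and in IMR-32 at 5 days. In IMR-32 replicate 5 was the lowest library of each group, and the 24-h library of replicate 5 lay within the range of the controls. The GAA log2 fold change and its SE in BE2C were 1.25 ± 0.12 (adjusted p = 5.7e-07) at 24 h and 1.29 ± 0.12 (adjusted p = 1e-07) at 7 days. The GAA log2 fold change in IMR-32 was 0.84 ± 0.27 (adjusted p = 0.028) at 24 h and 0.83 ± 0.27 (adjusted p = 0.019) at 5 days. The GAA log2 fold change in SH-SY5Y was 0.70 ± 0.07 (adjusted p = 1.4e-07) at 24 h and 0.58 ± 0.07 (adjusted p = 6.2e-07) at 5 days. GAA was not called between 24 h and the longer time in any line. In IMR-32 the 24-h call ended without control replicate 3 (adjusted p = 0.054) or without 24-h replicate 1, 2 or 4 (adjusted p of 0.063, 0.051 and 0.064). Without replicate 5 in all groups the IMR-32 values were 0.77 ± 0.10 (adjusted p = 1.5e-05) and 0.70 ± 0.10 (adjusted p = 2.1e-05). With no filter on low counts, the adjusted p in IMR-32 was 0.079 at 24 h and 0.056 at 5 days.

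IDS encodes iduronate 2-sulfatase, which acts before IDUA on the same substrates and is lost in Hunter syndrome (GRCh37 chromosome X, 148558519 to 148602635, minus strand). IDS in BE2C was at 334, 416, 404, 371 and 381 CPM in control replicates 1 to 5, at 533, 596, 584, 577 and 567 CPM after 24 h and at 894, 1020, 886, 918 and 958 CPM after 7 days of PB. IDS in IMR-32 was at 182, 206, 164, 205 and 92.6 CPM in the controls, at 259, 221, 250, 279 and 171 CPM after 24 h and at 357, 437, 391, 432 and 331 CPM after 5 days. IDS in SH-SY5Y was at 309, 322, 253, 287 and 290 CPM in the controls, at 449, 478, 393, 408 and 419 CPM after 24 h and at 560, 574, 472, 514 and 424 CPM after 5 days. Levels at the longer time were above all controls in every line, and above all 24-h libraries in BE2C and IMR-32. The IDS log2 fold change and its SE in BE2C were 0.55 ± 0.06 (adjusted p = 1.2e-06) at 24 h and 1.25 ± 0.06 (adjusted p = 5.3e-11) at 7 days. The IDS log2 fold change in IMR-32 was 0.52 ± 0.18 (adjusted p = 0.033) at 24 h and 1.19 ± 0.18 (adjusted p = 7.8e-05) at 5 days. The IDS log2 fold change in SH-SY5Y was 0.54 ± 0.08 (adjusted p = 2.4e-05) at 24 h and 0.73 ± 0.08 (adjusted p = 4.2e-07) at 5 days. Between 24 h and the longer time IDS rose by 0.70 ± 0.06 in BE2C and 0.66 ± 0.18 in IMR-32. The 24-h call in IMR-32 rested on single libraries and on the scaling. It fell under the fold limit with DESeq2 (0.49), RLE size factors (0.49), library size alone (0.47) and without control replicate 5 (0.37), and had an adjusted p of 0.065 with no filter on low counts. It also ended without control replicate 3 (adjusted p = 0.064) or 24-h replicate 1 (adjusted p = 0.071), 2 (adjusted p = 0.051), 3 (adjusted p = 0.064) or 4 (adjusted p = 0.082), and without replicate 5 in all groups (0.47 ± 0.09, adjusted p = 0.00049). The 24-h call in SH-SY5Y ended without control replicate 3 (0.49) or 24-h replicate 2 (0.48). The annotation names 1 pseudogene of IDS (IDSP1), with which reads may be shared.

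SGSH encodes N-sulfoglucosamine sulfohydrolase, lost in a form of Sanfilippo syndrome (GRCh37 chromosome 17, 78180515 to 78194722, minus strand). SGSH in BE2C was at 26.3, 21.5, 25.4, 26.4 and 27.8 CPM in control replicates 1 to 5, at 38.7, 34.7, 41.3, 45.5 and 41.2 CPM after 24 h and at 46.2, 70.4, 69.4, 62.6 and 56.7 CPM after 7 days of PB. SGSH in IMR-32 was at 21.5, 24.8, 21, 26.3 and 13.9 CPM in the controls, at 39.3, 32.3, 34.1, 39.9 and 28.3 CPM after 24 h and at 46.8, 55.4, 41, 55.5 and 26.3 CPM after 5 days. SGSH in SH-SY5Y was at 30.4, 39.9, 34.4, 29.8 and 29.2 CPM in the controls, at 62, 60.8, 55.9, 55.6 and 56.1 CPM after 24 h and at 83.3, 76.6, 67.7, 61.4 and 58.6 CPM after 5 days. All treated libraries were above all controls in BE2C and SH-SY5Y and, at 24 h, in IMR-32. At 5 days the IMR-32 library of replicate 5 lay at the highest control. The SGSH log2 fold change and its SE in BE2C were 0.63 ± 0.10 (adjusted p = 0.00011) at 24 h and 1.22 ± 0.10 (adjusted p = 2.6e-08) at 7 days. The SGSH log2 fold change in IMR-32 was 0.74 ± 0.19 (adjusted p = 0.0072) at 24 h and 1.05 ± 0.19 (adjusted p = 0.00033) at 5 days. The SGSH log2 fold change in SH-SY5Y was 0.82 ± 0.09 (adjusted p = 1.1e-06) at 24 h and 1.02 ± 0.09 (adjusted p = 4.1e-08) at 5 days. SGSH rose further between 24 h and 7 days in BE2C, by 0.59 ± 0.10 (adjusted p = 0.00011).

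GUSB encodes beta-glucuronidase, lost in Sly syndrome (GRCh37 chromosome 7, 65425671 to 65447202, minus strand). GUSB in BE2C was at 50.6, 48.1, 50.9, 50 and 50.7 CPM in control replicates 1 to 5, at 26.9, 19, 23.6, 24.8 and 24.2 CPM after 24 h and at 29, 22.2, 21.6, 28.8 and 26.1 CPM after 7 days of PB. GUSB in IMR-32 was at 58.6, 49.4, 51.1, 54.4 and 51.7 CPM in the controls, at 31.8, 35.8, 27.2, 35.9 and 25.6 CPM after 24 h and at 33.6, 31, 32.1, 31 and 25.6 CPM after 5 days. GUSB in SH-SY5Y was at 67.7, 71.5, 72.1, 67 and 65.8 CPM in the controls, at 39.2, 38.5, 45.6, 37.7 and 36.7 CPM after 24 h and at 36.3, 31.2, 31.6, 38.1 and 37.3 CPM after 5 days. Every treated library was below every control of its line at both times, and the treated groups overlapped each other. The GUSB log2 fold change and its SE in BE2C were -1.11 ± 0.10 (adjusted p = 1.7e-07) at 24 h and -1.02 ± 0.10 (adjusted p = 1.1e-07) at 7 days. The GUSB log2 fold change in IMR-32 was -0.72 ± 0.11 (adjusted p = 0.00012) at 24 h and -0.80 ± 0.11 (adjusted p = 2.9e-05) at 5 days. The GUSB log2 fold change in SH-SY5Y was -0.81 ± 0.07 (adjusted p = 3.7e-08) at 24 h and -1.05 ± 0.07 (adjusted p = 1.5e-09) at 5 days. GUSB was not called between 24 h and the longer time in any line. The annotation names 19 pseudogenes of GUSB, and how reads that fit several of them were counted is not given.

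The other glycan hydrolases changed in fewer lines. MAN2B1, lysosomal alpha-mannosidase, rose by 0.59 ± 0.07 at 24 h and 0.60 ± 0.07 at 7 days in BE2C, and by 0.63 ± 0.08 and 1.15 ± 0.08 in SH-SY5Y. In IMR-32 MAN2B1 was at 0.33 ± 0.18 and -0.13 ± 0.18. GLB1, the beta-galactosidase behind the senescence-associated stain, was called only in SH-SY5Y at 5 days, at 0.52 ± 0.06, and ended as a call there without control replicate 4 (0.49) or 5-day replicate 2 (0.50). GLB1 at the longer time was at 0.12 ± 0.07 in BE2C and -0.23 ± 0.08 in IMR-32. HEXA, a subunit of beta-hexosaminidase, was between 0.31 and 0.43 in all 6 comparisons and passed the adjusted p in each without reaching the limit on fold change. NAGLU, a further enzyme of heparan sulfate breakdown, was between -0.15 and 0.41, and GLA, alpha-galactosidase A, between -0.31 and -0.02. Exons on the opposite strand cover 14.1% of HEXA.

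**Figure D2:**
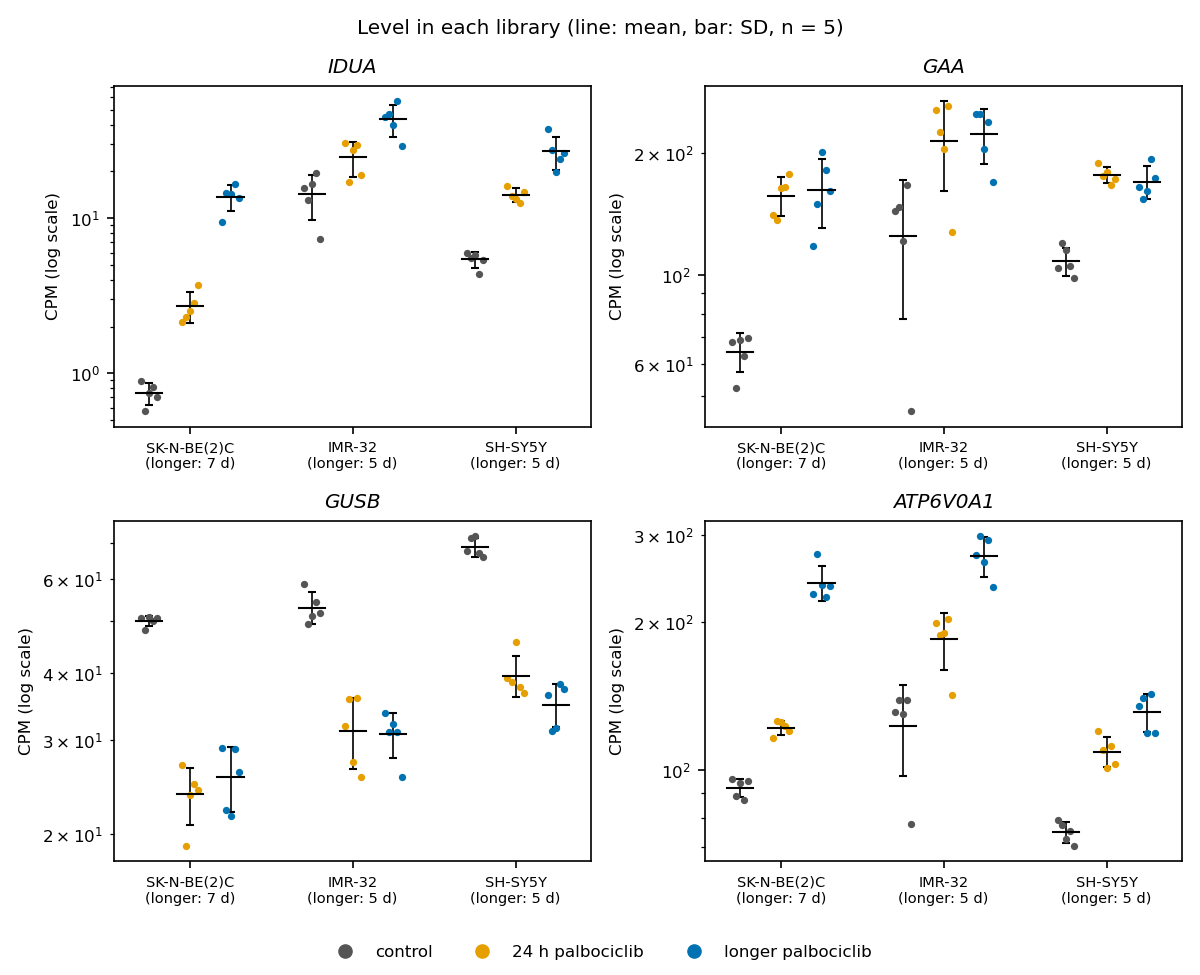
CPM on a log scale of IDUA, GAA, GUSB and ATP6V0A1 in each library (points), by line and treatment, with the mean as a line and the SD as a bar (n = 5). IDUA lies below 1 CPM in the BE2C controls and at 9.41 to 16.6 CPM at 7 days, GUSB lies lower in every treated group, and replicate 5 of IMR-32 is the low point of the IMR-32 controls for IDUA, GAA and ATP6V0A1.

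Among the lipid-degrading hydrolases and their cofactors, 5, 4 and 5 of 7 genes were called higher at 24 h, where 10.9%, 7.87% and 10.5% of all genes were, with medians of 0.57, 0.55 and 0.60, and 5, 2 and 5 rose at the longer time, against 24.5%, 16.6% and 18.6% of all genes, with medians of 0.82, 0.16 and 0.58. One of the 4 in IMR-32 at 24 h was PSAP, whose call ended without control replicate 5 or 24-h replicate 2. PPT1 fell at the longer time in BE2C and IMR-32.

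ARSA encodes arylsulfatase A, which removes sulfate from sulfatide, a lipid of myelin, and is lost in metachromatic leukodystrophy (GRCh37 chromosome 22, 51061182 to 51066601, minus strand). ARSA in BE2C was at 12, 11.2, 12, 13.3 and 12.6 CPM in control replicates 1 to 5, at 22.5, 18.1, 24.5, 23.8 and 25.5 CPM after 24 h and at 32.9, 37.4, 33.1, 35.2 and 30.5 CPM after 7 days of PB. ARSA in IMR-32 was at 11.4, 9.77, 11.2, 12.7 and 8.56 CPM in the controls, at 17.6, 15.1, 15.8, 17.5 and 14.9 CPM after 24 h and at 23.7, 25.5, 20.9, 26.7 and 17 CPM after 5 days. ARSA in SH-SY5Y was at 22.6, 24.7, 21.1, 19.1 and 17.1 CPM in the controls, at 46, 39, 37, 33.2 and 34.5 CPM after 24 h and at 88.2, 71.2, 63.2, 70.1 and 65 CPM after 5 days. Every treated library was above every control of its line. The longer treatment lay above all 24-h libraries in BE2C and SH-SY5Y and overlapped them in IMR-32. The ARSA log2 fold change and its SE in BE2C were 0.87 ± 0.09 (adjusted p = 7.2e-07) at 24 h and 1.43 ± 0.09 (adjusted p = 8.2e-10) at 7 days. The ARSA log2 fold change in IMR-32 was 0.64 ± 0.12 (adjusted p = 0.0011) at 24 h and 1.07 ± 0.12 (adjusted p = 7.9e-06) at 5 days. The ARSA log2 fold change in SH-SY5Y was 0.85 ± 0.10 (adjusted p = 2.8e-06) at 24 h and 1.70 ± 0.10 (adjusted p = 6.2e-10) at 5 days. ARSA rose further between 24 h and the longer time in BE2C (0.55 ± 0.08) and SH-SY5Y (0.86 ± 0.10), and was at 0.43 ± 0.12 in IMR-32. The BE2C step fell to 0.48, under the limit, without 24-h replicate 2, and the IMR-32 step reached 0.52 without 5-day replicate 5.

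SMPD1, acid sphingomyelinase, rose in all 6 comparisons, by 0.57 ± 0.10, 0.72 ± 0.13 and 0.80 ± 0.10 at 24 h and by 1.03 ± 0.10, 1.02 ± 0.13 and 0.58 ± 0.10 at the longer time in BE2C, IMR-32 and SH-SY5Y. Its 24-h call in BE2C ended at 0.49 without 24-h replicate 3. GRN encodes progranulin, a secreted and lysosomal protein that is cut into granulins, and rose by 0.71 ± 0.08, 0.57 ± 0.07 and 0.77 ± 0.10 at 24 h. GRN rose at the longer time by 0.82 ± 0.08 in BE2C and 0.89 ± 0.10 in SH-SY5Y and was at 0.16 ± 0.07 in IMR-32. ASAH1, acid ceramidase, had the same order at the longer time, at 0.86 ± 0.10, -0.14 ± 0.10 and 1.07 ± 0.07. Its 24-h call in BE2C (0.53 ± 0.10) ended without control replicate 2 (0.49) or 24-h replicate 3 (0.50). LIPA, the acid lipase of cholesteryl esters, rose at 24 h in BE2C (0.62 ± 0.07) and SH-SY5Y (0.60 ± 0.06). In BE2C LIPA fell again by 0.63 ± 0.07 from 24 h to 7 days, while in SH-SY5Y it was still 0.54 ± 0.06 above control at 5 days. PSAP, the precursor of the saposins that present lipids to these enzymes, rose by 0.55 ± 0.08 at 24 h in IMR-32 and 0.72 ± 0.09 at 7 days in BE2C, and was between 0.38 and 0.47 in the other 4 comparisons. The IMR-32 call of PSAP ended at 0.49 without control replicate 5 or 24-h replicate 2. In BE2C at 24 h PSAP reached 0.50, 0.52 and 0.51 without control replicate 5, 24-h replicate 1 and 24-h replicate 2, and in SH-SY5Y at 5 days 0.51 without control replicate 3. PPT1, the thioesterase that removes palmitate from proteins, fell by 0.70 ± 0.08 (adjusted p = 1.3e-06) at 7 days in BE2C and by 0.70 ± 0.09 (adjusted p = 1.1e-05) at 5 days in IMR-32, and was at -0.20 ± 0.05 in SH-SY5Y.

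More of the V-ATPase genes were called at the longer time than at 24 h, as were more of all genes. Of the 12, 0 were called in BE2C, 2 in IMR-32 and 1 in SH-SY5Y at 24 h, against 6, 5 and 2 after longer treatment, all of them higher. For all genes the shares that rose were 10.9%, 7.87% and 10.5%, then 24.5%, 16.6% and 18.6%, so that 2 of 12 in SH-SY5Y was near the share of all genes. Within BE2C at 24 h, edgeR and DESeq2 both called 0 of the 4 V0 genes, 0 of the 6 V1 genes and 0 of the 2 accessory genes, and 2, 3 and 2 of them had an unadjusted p under 0.05 with a higher value, beside 1 V0 gene with a lower one.

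ATP6V0A1 encodes the a1 isoform of the large membrane subunit of V0, the isoform of neurons and their synaptic vesicles (GRCh37 chromosome 17, 40610862 to 40674600, plus strand). ATP6V0A1 in BE2C was at 95.8, 88.5, 94.4, 87.2 and 94.9 CPM in control replicates 1 to 5, at 116, 126, 125, 123 and 120 CPM after 24 h and at 228, 274, 237, 224 and 236 CPM after 7 days of PB. ATP6V0A1 in IMR-32 was at 131, 139, 130, 139 and 77.9 CPM in the controls, at 199, 188, 190, 202 and 142 CPM after 24 h and at 273, 298, 264, 292 and 235 CPM after 5 days. ATP6V0A1 in SH-SY5Y was at 79.3, 77.4, 72.4, 75.2 and 70.3 CPM in the controls, at 120, 110, 101, 112 and 103 CPM after 24 h and at 135, 140, 119, 143 and 119 CPM after 5 days. Treated libraries were above all controls in each line, and in BE2C and IMR-32 the libraries at the longer time were also above all 24-h ones. The ATP6V0A1 log2 fold change and its SE in BE2C were 0.38 ± 0.05 (adjusted p = 2.4e-05) at 24 h and 1.34 ± 0.05 (adjusted p = 1.3e-11) at 7 days. The ATP6V0A1 log2 fold change in IMR-32 was 0.63 ± 0.14 (adjusted p = 0.0023) at 24 h and 1.13 ± 0.14 (adjusted p = 1.1e-05) at 5 days. The ATP6V0A1 log2 fold change in SH-SY5Y was 0.53 ± 0.06 (adjusted p = 1.3e-06) at 24 h and 0.74 ± 0.06 (adjusted p = 1.5e-08) at 5 days. From 24 h to the longer time it rose by 0.96 ± 0.05 (adjusted p = 1.9e-09) in BE2C and 0.51 ± 0.14 (adjusted p = 0.0098) in IMR-32, and was at 0.20 ± 0.06 in SH-SY5Y. The IMR-32 step fell under the limit without 24-h replicate 5 (0.42) or 5-day replicate 2 (0.48) or 4 (0.48), and without replicate 5 in all groups (0.47 ± 0.06).

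ATP6V0D1, which joins the V0 ring to the central stalk, rose at the longer time by 0.77 ± 0.05 (adjusted p = 3.7e-09), 0.64 ± 0.08 (adjusted p = 2.2e-05) and 0.53 ± 0.07 (adjusted p = 6e-06) and was at 0.19 to 0.41 at 24 h. ATP6V0C, the proteolipid of the ring, was at 0.44 ± 0.04, 0.48 ± 0.08 and 0.28 ± 0.05 at the longer time, and was called in IMR-32 only without 5-day replicate 4 (0.50). ATP6V0B, a second ring subunit, was between -0.13 and 0.23. The annotation names 4 pseudogenes of ATP6V0C.

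In the V1 sector, edgeR and DESeq2 called 0 of 6 genes in any line at 24 h, where 3, 4 and 4 had an unadjusted p under 0.05. At the longer time, ATP6V1A, the subunit that hydrolyses ATP, rose by 0.90 ± 0.04 in BE2C and 0.57 ± 0.07 in IMR-32, with 0.36 ± 0.05 in SH-SY5Y. ATP6V1H, which couples ATP hydrolysis to proton transport, rose by 0.66 ± 0.05 and 0.65 ± 0.07, with 0.42 ± 0.06 in SH-SY5Y. Without replicate 5 in all groups, the IMR-32 value of ATP6V1A was 0.50 and not called. ATP6V1B2, the other subunit of the catalytic head, lay between -0.16 and 0.16, and ATP6V1C1, on the peripheral stalk, between -0.04 and 0.14. ATP6V1D of the central stalk and ATP6V1E1 of the peripheral stalk lay between 0.05 and 0.38. Of the 6 V1 genes in SH-SY5Y at 5 days, edgeR and DESeq2 called 0, and 4 had an unadjusted p under 0.05 with a higher value and 1 with a lower one. The accessory gene ATP6AP1, whose product aids assembly, rose by 0.88 ± 0.06 and 0.55 ± 0.07 in BE2C and IMR-32 at the longer time and by 0.54 ± 0.07 in IMR-32 at 24 h, with 0.37 ± 0.05 in SH-SY5Y at 5 days. The 24-h call of ATP6AP1 in IMR-32 ended without control replicate 5 (0.50) or 24-h replicate 2 (0.49). In SH-SY5Y at 24 h ATP6AP1 was at 0.49 ± 0.05, and reached 0.52, 0.50 and 0.51 without control replicate 2, control replicate 3 and 24-h replicate 4. ATP6AP2, the prorenin receptor, rose by 0.52 ± 0.05 at 7 days in BE2C, a call that ended without 7-day replicate 2 (0.48) or 3 (0.49), and was between 0.14 and 0.41 elsewhere.

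The MiT factor genes did not move together. TFEB was called lower in BE2C at 24 h and in IMR-32 at 5 days and higher in SH-SY5Y at 5 days, MITF was called lower in IMR-32 at 5 days, and TFE3, whose RNA was the most abundant per exonic length of the 3 in every line, was not called in any comparison with control.

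TFEB encodes the best known activator of lysosomal genes in the family (GRCh37 chromosome 6, 41651716 to 41703997, minus strand). TFEB in BE2C was at 13.8, 18.5, 11.2, 13.2 and 12.9 CPM in control replicates 1 to 5, at 10.3, 11.6, 6.76, 7.53 and 7.76 CPM after 24 h and at 16.1, 12.2, 8.24, 10.7 and 10.6 CPM after 7 days of PB. TFEB in IMR-32 was at 5.44, 5.71, 6.04, 5.39 and 5.06 CPM in the controls, at 3.32, 5.31, 3.92, 3.69 and 3.32 CPM after 24 h and at 2.33, 1.96, 1.78, 1.1 and 4.42 CPM after 5 days. TFEB in SH-SY5Y was at 4.6, 6.84, 5.11, 5.01 and 3.7 CPM in the controls, at 7.06, 7.05, 7.53, 5.33 and 4.71 CPM after 24 h and at 17, 15.7, 14.5, 10.2 and 9 CPM after 5 days. In BE2C the 3 groups overlapped. All 5-day libraries of IMR-32 were below its controls and all 5-day libraries of SH-SY5Y were above theirs, with no overlap in either line. The TFEB log2 fold change and its SE in BE2C were -0.69 ± 0.19 (adjusted p = 0.0071) at 24 h and -0.31 ± 0.19 (adjusted p = 0.15) at 7 days. The TFEB log2 fold change in IMR-32 was -0.45 ± 0.27 (adjusted p = 0.22) at 24 h and -1.26 ± 0.28 (adjusted p = 0.0015) at 5 days. The TFEB log2 fold change in SH-SY5Y was 0.31 ± 0.19 (adjusted p = 0.19) at 24 h and 1.33 ± 0.19 (adjusted p = 6e-06) at 5 days. From 24 h to 5 days TFEB fell by 0.81 ± 0.28 (adjusted p = 0.034) in IMR-32 and rose by 1.01 ± 0.18 (adjusted p = 0.00034) in SH-SY5Y. This IMR-32 step was lost without 24-h replicate 2 or 3 or 5-day replicate 1, 2, 3 or 4 (adjusted p of 0.094, 0.052, 0.059, 0.078, 0.078 and 0.075). It was -1.25 ± 0.22 (adjusted p = 0.00023) without replicate 5 in all groups, and the IMR-32 difference from control at 5 days was then -1.66 ± 0.21 (adjusted p = 5.9e-06). In BE2C the step from 24 h to 7 days was 0.38 ± 0.19 (adjusted p = 0.1) and was called without 24-h replicate 2 (0.50, adjusted p = 0.038).

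TFE3 encodes a MiT factor that acts beside TFEB on the same sites (GRCh37 chromosome X, 48886237 to 48900936, minus strand). TFE3 in BE2C was at 59.2, 61.4, 61.5, 66.6 and 66 CPM in control replicates 1 to 5, at 59.4, 67.8, 62.2, 60.7 and 60.3 CPM after 24 h and at 90.2, 93.7, 76.6, 75.7 and 78.9 CPM after 7 days of PB. TFE3 in IMR-32 was at 35.5, 32.1, 38.4, 34.2 and 32.1 CPM in the controls, at 41.2, 36.4, 42.6, 38.6 and 34.9 CPM after 24 h and at 43.7, 47.5, 39.9, 45.9 and 40 CPM after 5 days. TFE3 in SH-SY5Y was at 51.7, 50.3, 54.4, 46.4 and 46.6 CPM in the controls, at 59.2, 51.8, 54.9, 46.5 and 46.3 CPM after 24 h and at 80.8, 70.6, 65.4, 54.5 and 54 CPM after 5 days. At the longer time the libraries were above all controls in BE2C and IMR-32 and overlapped them in SH-SY5Y. The TFE3 log2 fold change and its SE in BE2C were -0.05 ± 0.07 (adjusted p = 0.57) at 24 h and 0.36 ± 0.07 (adjusted p = 0.00016) at 7 days. The TFE3 log2 fold change in IMR-32 was 0.21 ± 0.08 (adjusted p = 0.043) at 24 h and 0.32 ± 0.08 (adjusted p = 0.0028) at 5 days. The TFE3 log2 fold change in SH-SY5Y was 0.04 ± 0.09 (adjusted p = 0.75) at 24 h and 0.31 ± 0.09 (adjusted p = 0.0074) at 5 days. The longer-time differences passed the adjusted p in all lines and were under the limit on fold change.

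MITF encodes the MiT factor of melanocytes and osteoclasts (GRCh37 chromosome 3, 69788607 to 70017487, plus strand). MITF in BE2C was at 8.29, 9.3, 13, 11 and 12.4 CPM in control replicates 1 to 5, at 8.19, 8.37, 11.6, 12.3 and 13.4 CPM after 24 h and at 7.45, 11, 12, 7.77 and 9.31 CPM after 7 days of PB. MITF in IMR-32 was at 4.91, 5.56, 5.33, 4.35 and 6.21 CPM in the controls, at 4.84, 3.61, 4.12, 4.99 and 6.2 CPM after 24 h and at 2.15, 1.8, 2.58, 2.36 and 2.86 CPM after 5 days. MITF in SH-SY5Y was at 7.94, 6.52, 7.4, 6.2 and 7.45 CPM in the controls, at 7.65, 9.67, 8.31, 7.51 and 5.81 CPM after 24 h and at 11.3, 10.6, 9.08, 7.05 and 8.09 CPM after 5 days. The 5-day libraries of IMR-32 were below all control and 24-h libraries of that line, and the groups of the other lines overlapped. The MITF log2 fold change and its SE in BE2C were -0.04 ± 0.17 (adjusted p = 0.87) at 24 h and -0.22 ± 0.17 (adjusted p = 0.26) at 7 days. The MITF log2 fold change in IMR-32 was -0.11 ± 0.17 (adjusted p = 0.65) at 24 h and -1.17 ± 0.17 (adjusted p = 6.3e-05) at 5 days. The MITF log2 fold change in SH-SY5Y was 0.12 ± 0.14 (adjusted p = 0.51) at 24 h and 0.31 ± 0.14 (adjusted p = 0.061) at 5 days. MITF fell by 1.06 ± 0.17 (adjusted p = 0.0003) from 24 h to 5 days in IMR-32. It was at 98 to 111 counts in the IMR-32 controls and at 33 to 51 counts at 5 days.

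**Figure D3:**
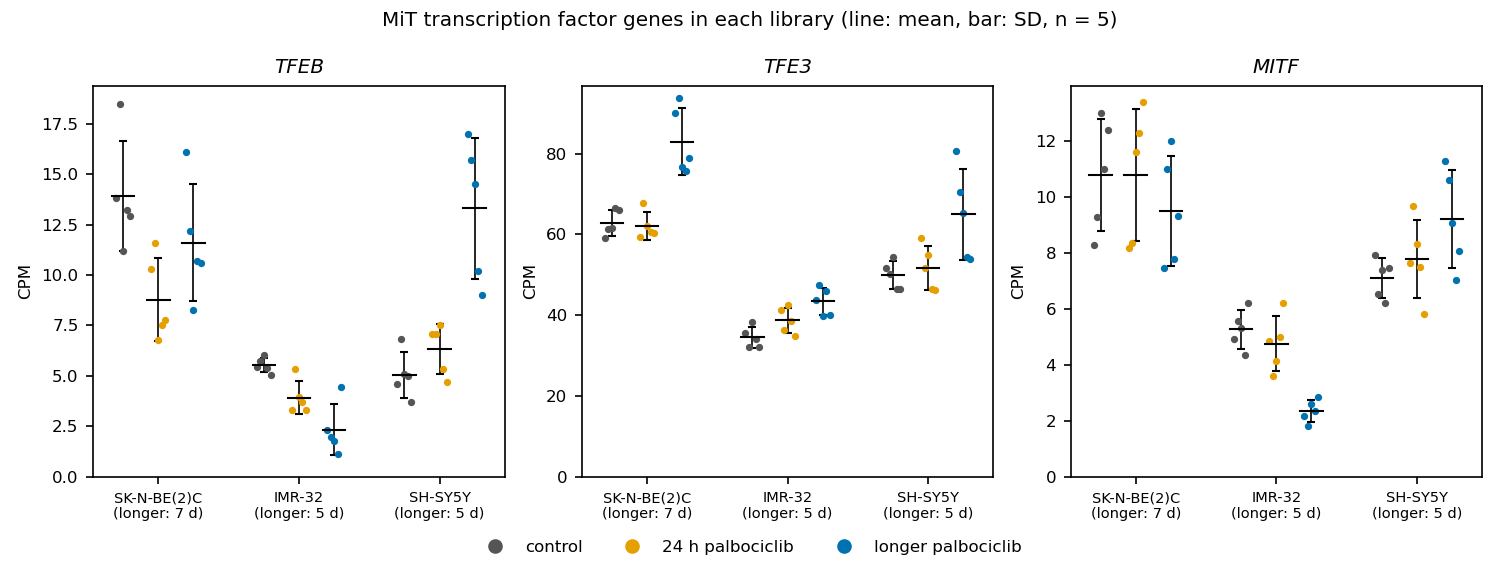
CPM of TFEB, TFE3 and MITF in each library (points) by line and treatment, with the mean as a line and the SD as a bar (n = 5). TFEB at 5 days lies at 1.1 to 4.42 CPM in IMR-32 and at 9 to 17 CPM in SH-SY5Y, where the controls of both lines lie between 3.7 and 6.84 CPM.

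Between 24 h and the longer time, 8 of the 44 genes rose and 2 fell in BE2C, where 17.5% and 14.4% of all genes did. In IMR-32, 4 rose and 4 fell (10.8% and 8.86% of all genes), and in SH-SY5Y 6 rose (10.5%) and 0 fell (6.23%). For the 0 of edgeR in SH-SY5Y, DESeq2 also gave 0, and 5 genes had an unadjusted p under 0.05 with a lower value. The median differences were 0.23, 0.00 and 0.10. In BE2C the genes that rose were MCOLN1, SCARB2, IDUA, IDS, SGSH, ARSA, ATP6V0A1 and ATP6V0D1, and those that fell were PPT1 and LIPA. In IMR-32, MCOLN1, IDUA, IDS and ATP6V0A1 rose and NAGLU, PPT1, TFEB and MITF fell. In SH-SY5Y, CTSF, IDUA, MAN2B1, ASAH1, ARSA and TFEB rose. The IMR-32 counts depended on single libraries: without 5-day replicate 4, 2 rose and 2 fell, without 5-day replicate 2, 2 fell, and without 24-h replicate 2, 1 fell. In SH-SY5Y, MAN2B1 and ASAH1 were under the limit without 5-day replicate 1 (0.49 and 0.48) or 24-h replicate 4 (0.49 for both), which left 4 genes that rose.

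The difference in response between lines was tested in 1 fit over all 45 libraries and 16282 genes. This fit had no replicate block, which was tried only for the comparisons within lines. At 24 h, 1 of the 44 genes differed between IMR-32 and BE2C, which was ATP6V0C, at 0.29 ± 0.08 (adjusted p = 0.021), where 6.89% of all genes differed. This difference was not called without replicate 2, 3 or 4 of every group. In the other 2 pairs edgeR found 0 genes, with 6 and 5 at an unadjusted p under 0.05 for SH-SY5Y against BE2C and SH-SY5Y against IMR-32, where 3.13% and 4.35% of all genes differed. At the longer time the response differed for 17 genes between IMR-32 and BE2C (38.6%, and 34.5% of all genes), for 16 between SH-SY5Y and BE2C (36.4% and 31.6%) and for 15 between SH-SY5Y and IMR-32 (34.1% and 30.6%). These shares are close to those of all genes. The log2 fold change was lower in IMR-32 than in BE2C for 16 of the 17, and higher in SH-SY5Y than in IMR-32 for 14 of the 15, while of the 16 between SH-SY5Y and BE2C, 7 were higher and 9 lower in SH-SY5Y. Of all genes that differed, 50.7% were lower in IMR-32 than in BE2C, 55.6% were higher in SH-SY5Y than in IMR-32, and 52.8% were higher in SH-SY5Y than in BE2C. Leaving out replicate 4 of every group took the 17 to 11, and leaving out replicate 1 took the 16 to 10.

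The genes with the largest difference between SH-SY5Y and IMR-32 at 5 days were TFEB (2.64 ± 0.33, adjusted p = 9.2e-08), MITF (1.54 ± 0.24, adjusted p = 4.3e-06), MAN2B1 (1.34 ± 0.18, adjusted p = 4.1e-07), ASAH1 (1.27 ± 0.13, adjusted p = 2e-09), GLB1 (0.81 ± 0.10, adjusted p = 1.2e-07) and GRN (0.79 ± 0.13, adjusted p = 6.3e-06). The enzymes ASAH1, MAN2B1 and GLB1 and the membrane proteins CD63 (0.69 ± 0.13) and LAMP2 (0.67 ± 0.10) had values below 0 in IMR-32 and above 0 in SH-SY5Y. IDUA differed in all 3 pairs, by -2.61 ± 0.31 for IMR-32 and -1.88 ± 0.32 for SH-SY5Y against BE2C, and by 0.74 ± 0.26 (adjusted p = 0.028) for SH-SY5Y against IMR-32. Against BE2C, the log2 fold change in SH-SY5Y was lower for MCOLN1 (-0.59 ± 0.13), ATP6V0A1 (-0.57 ± 0.14), ATP6V1A (-0.51 ± 0.08) and ATP6AP1 (-0.48 ± 0.09) and higher for LIPA (0.58 ± 0.12), CTSF (0.58 ± 0.15), PPT1 (0.53 ± 0.11, a fall in BE2C and no call in SH-SY5Y) and TFEB (1.67 ± 0.31).

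**Figure D4:**
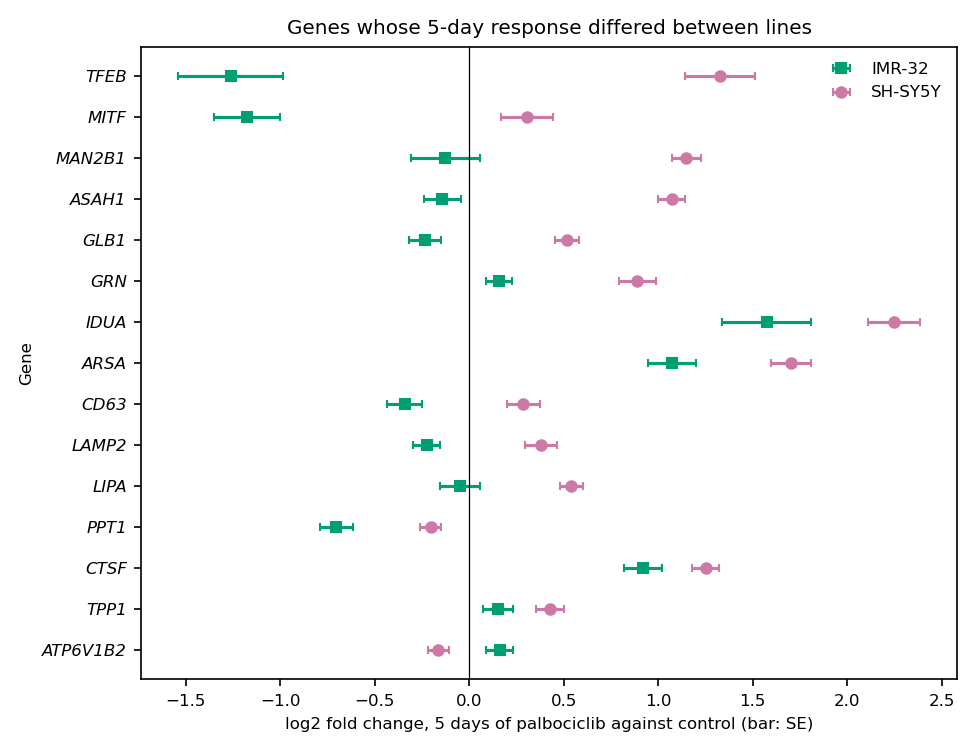
Log2 fold change at 5 days of PB against control in IMR-32 (squares) and SH-SY5Y (circles), with SE bars, for the 15 genes whose response differed between these lines. The circle lies to the right of the square for 14 genes and to the left for ATP6V1B2.

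Control cells of the 3 lines also differed in these genes. Against BE2C, 27 genes differed in IMR-32 (4 higher and 23 lower, where 31.3% and 30.8% of all genes were higher and lower) and 28 in SH-SY5Y (5 higher and 23 lower, against 29.7% and 27.9% of all genes). Between SH-SY5Y and IMR-32, 14 differed (6 higher and 8 lower in SH-SY5Y, against 27.7% and 26.6%). IDUA differed most: its level was 4.26 ± 0.25 (adjusted p = 2.4e-19) higher in IMR-32 and 2.65 ± 0.26 (adjusted p = 2.7e-12) higher in SH-SY5Y than in BE2C on the log2 scale. CTSB was lower in IMR-32 than in BE2C, with a log2 difference of -2.56 ± 0.10 (adjusted p = 4.6e-25). MAN2B1, GAA and GRN were higher in IMR-32 than in BE2C by 1.57 ± 0.13, 0.94 ± 0.19 and 0.55 ± 0.09. In both other lines TFEB was below its level in BE2C, by log2 differences of -1.35 ± 0.22 in IMR-32 and -1.67 ± 0.23 in SH-SY5Y.

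Per kilobase of annotated exon, PSAP was the most abundant of the genes in control cells of each line, at 342 CPM per kilobase in BE2C, 144 in IMR-32 and 215 in SH-SY5Y. ATP6V0C (154, 119 and 134 CPM per kilobase) and CD63 (121, 124 and 114) followed. TFE3 was at 15, 8.19 and 11.9 CPM per kilobase, above TFEB (2.07, 0.822 and 0.751) and MITF (1.46, 0.71 and 0.957). IDUA was the lowest of the tested genes in BE2C, at 0.184 CPM per kilobase, and was at 3.56 and 1.33 in IMR-32 and SH-SY5Y.

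**Figure D5:**
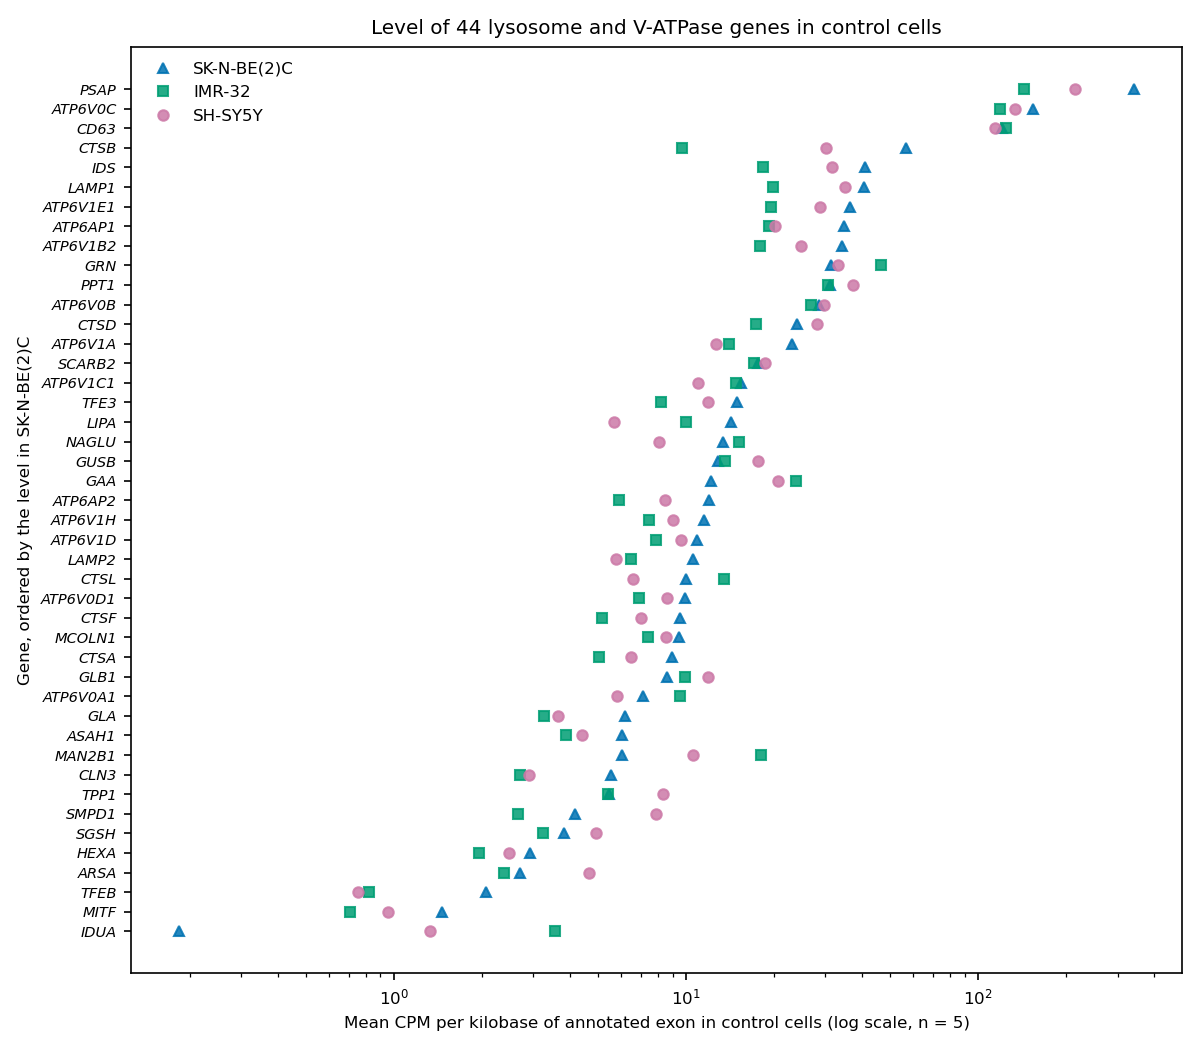
Mean CPM per kilobase of annotated exon (log scale, n = 5) of the 44 tested genes in control cells, ordered by their level in BE2C. Most triangles, which stand for BE2C, lie to the right of the other 2 symbols, and IDUA, at the bottom, lies far to the left in BE2C.

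Further genes of the pathway were examined in lists of the same kinds. Of 28 or 29 other hydrolases and cofactors tested, 6, 3 and 6 rose and 1 fell in each line at 24 h, and at the longer time 9 rose and 8 fell in BE2C, 6 rose and 6 fell in IMR-32, and 10 rose and 3 fell in SH-SY5Y. At 24 h those that rose were 21.4%, 10.7% and 20.7% of the list, against 10.9%, 7.87% and 10.5% of all genes, and those that fell 3.57%, 3.57% and 3.45%, against 10.6%, 10.5% and 11.0%. In BE2C and IMR-32 these numbers at the longer time were near the shares of all genes, at 32.1% and 28.6% of the list against 24.5% and 22.3% of all genes in BE2C, and 21.4% in each direction against 16.6% and 15.5% in IMR-32. In SH-SY5Y they were 34.5% and 10.3%, against 18.6% and 17.3%. The medians at the longer time were -0.03, -0.16 and 0.26. FUCA1, alpha-L-fucosidase, rose in all 3 lines at the longer time by 1.10 ± 0.26, 1.61 ± 0.36 and 0.63 ± 0.12. PLD3, an exonuclease of nucleic acids, rose by 1.14 ± 0.08, 0.79 ± 0.16 and 1.16 ± 0.10. CTSV, cathepsin V, fell in all 3, by 0.57 ± 0.12, 1.57 ± 0.19 and 0.73 ± 0.12.

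Of 23 other membrane proteins and transporters, 2 rose and 0 fell in each line at 24 h, and 10, 6 and 8 rose and 2, 2 and 0 fell at the longer time, with medians of 0.30, 0.21 and 0.37. For each 0 of edgeR, DESeq2 also gave 0, and 0, 0 and 2 genes at 24 h and 1 in SH-SY5Y at 5 days had an unadjusted p under 0.05 with a lower value. Those that rose made up 43.5%, 26.1% and 34.8% of the list at the longer time (24.5%, 16.6% and 18.6% of all genes), and at 24 h 8.7% in each line, near the 10.9%, 7.87% and 10.5% of all genes. The shares of the list that fell were below those of all genes, which were 10.6%, 10.5% and 11.0% at 24 h and 22.3%, 15.5% and 17.3% later. ABCA2, a lipid transporter, rose by 1.45 ± 0.14, 0.76 ± 0.22 and 0.89 ± 0.08, and SIDT2, which takes up RNA and DNA, by 0.62 ± 0.06, 0.66 ± 0.14 and 0.93 ± 0.08. Of 17 or 18 further V-ATPase subunits and assembly factors, 3, 2 and 3 rose and 2, 0 and 0 fell at the longer time, with medians of 0.18, 0.22 and 0.09, and those that rose made up 17.6%, 11.1% and 17.6% of the list, below the shares of all genes. Those that fell were likewise below the 22.3%, 15.5% and 17.3% of all genes. Where edgeR gave 0, DESeq2 called 1 lower in SH-SY5Y but 0 for IMR-32, and 3 genes of each line had an unadjusted p under 0.05 with a lower value. NCOA7, a protein that binds the pump, rose in all 3 lines by 0.73 ± 0.08, 0.63 ± 0.17 and 0.65 ± 0.09. Of 16 genes that sort hydrolases to the lysosome, 2, 0 and 1 rose and 5, 2 and 0 fell, with medians of 0.07, 0.08 and 0.09, and those that rose were 12.5%, 0% and 6.25% of the list, below the shares of all genes. Those that fell were 31.2%, 12.5% and 0%, where 22.3%, 15.5% and 17.3% of all genes fell. DESeq2 also called 0 higher in IMR-32 and 0 lower in SH-SY5Y, where 5 and 6 genes had an unadjusted p under 0.05 in that direction. Of 18 genes of mTORC1 and Rag control, 5, 3 and 3 rose and 0, 0 and 2 fell, with medians of 0.16, 0.12 and 0.16, and those that rose were 27.8%, 16.7% and 16.7% of the list, near the shares of all genes. Those that fell were 0%, 0% and 11.1%, below the 22.3%, 15.5% and 17.3% of all genes. For the 0 of edgeR, DESeq2 called 0 lower in BE2C and 1 in IMR-32, and 5 genes in each had an unadjusted p under 0.05 with a lower value. RRAGB, a Rag GTPase that recruits mTORC1 and MiT factors to the lysosome, rose by 1.06 ± 0.10, 1.12 ± 0.10 and 0.66 ± 0.10. Of the 4 cathepsin inhibitor genes 2 were tested, and both are named after their values were seen. CST3, cystatin C, rose at 24 h in all 3 lines, by 0.61 ± 0.11, 0.58 ± 0.20 and 0.55 ± 0.12, and was not called at the longer time. CSTB, cystatin B, was not called at 24 h and fell at the longer time by 0.69 ± 0.07 in BE2C and 0.55 ± 0.12 in IMR-32, with -0.26 ± 0.06 in SH-SY5Y.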

How the data were processed

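RNA of 45 cultures was sequenced as polyA-selected, directional paired-end libraries. Per the labels, reads were trimmed with Trim Galore 0.6.4 and counted per gene during alignment to hg19 with STAR 2.6.1d. The counts deposited by the authors are raw reads per gene, and the deposited CPM values are those counts scaled to the library total. Which strand column was counted is not stated in the labels or methods. The authors' comparison tables, which hold DESeq2 1.32.0 fold changes and p-values, were not used.

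Counts were tested line by line with edgeR 4.0.16 (TMM scaling, filterByExpr with a minimum count of 10, robust quasi-likelihood fit) in R 4.3.3. The limits for a call were 0.05 for the adjusted p and 0.5 for the size of the log2 fold change. Differences between lines came from 1 fit over all libraries, in which a response was said to differ at an adjusted p under 0.05 and a control level also needed the fold limit. Log2 fold changes come from the fit, and CPM values are printed as measured. Tables and plots were made with pandas 2.3.3 and matplotlib 3.10.9 in Python 3.11.15.

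The genes, lists and tests were chosen with earlier results of these data known. Library values are printed for up to 5 genes per comparison with the largest mean change among those called alike in all 3 lines, for the 3 MiT factors, and for genes called in opposite directions in 2 lines. Up to 2 genes per direction are named from other lists. Replicates are cultures of 1 line, so p-values measure the spread between cultures. Counting error alone does not cover this spread.

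Replicate numbers are shared by the groups of a line. The correlation of same-numbered libraries' deviations was above 0.1 for every pair in all comparisons of IMR-32 (lowest 0.114) and SH-SY5Y (lowest 0.109) and in BE2C at 24 h against control (lowest 0.243), but not in the 7-day comparisons of BE2C (lowest 0.0966 and 0.0482). The pairing comes from these correlations and not from the labels. Over 90 pairs of libraries within groups, no pair agreed within sampling noise. Replicates 3, 4 and 5 of BE2C lay closer to each other than to replicates 1 and 2 in the control and 24-h groups. Among them the chi-square per degree of freedom, which grows with such disagreement, was 2.43 to 3.18 in controls and 1.69 to 2.42 at 24 h. Against replicates 1 and 2 it was 12.8 to 19.2 and 16.4 to 23.6. The labels do not say why, and replicates 1 and 2 were not left out together.

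Alternatives were RLE size factors, library size alone, no filter on low counts, DESeq2 1.42.0, the adjusted p alone, a replicate block and leaving out each library. Leaving replicate 5 out of all IMR-32 groups was added after seeing the data. In 1 draw of simulated data for the longer comparison, with 100 genes changed at each size, 94, 97 and 97% of the genes with a log2 change of 1 passed the adjusted p in BE2C, IMR-32 and SH-SY5Y (13995, 14247 and 14509 genes tested), and 72, 70 and 65% of those with a change of 0.6. A single draw is imprecise at the smaller size. The simulation used the same spread between replicates for each line, and no replicate effect. As a coefficient of variation, the common spread fitted to the real counts was 13.8%, 19.8% and 11.2% in BE2C, IMR-32 and SH-SY5Y. The simulated spread lay below that of IMR-32, so the simulated shares do not describe the real IMR-32 counts. Some details of the lines and of some listed genes are not reported here.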

Additional observations from a re-analysis of the deposited data

Results flagged for a closer look

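In 4 of 90 groups of libraries (10 genes in 9 groups), 1 library lay far from the other 4, a gap that chance gives in about 1 of 20 groups. GUSB in 24-h replicate 3 of SH-SY5Y was at 45.6 CPM, with the nearest library at 39.2. ATP6V0A1 in 7-day replicate 2 of BE2C was at 274 CPM, with the nearest at 237. ATP6V0A1 in replicate 5 of IMR-32 was at 77.9 CPM in the control and 142 CPM at 24 h, with the nearest at 130 and 188.

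The response at the longer time differed between lines in 13 of 30 tests of the 10 genes whose library values are printed by rule (adjusted p under 0.05 in the fit over all libraries, where 30.6% to 34.5% of all genes differed). Apart from the MiT factors, these genes were chosen for the size of their changes in these data, and the tests of a gene share libraries. The count is therefore a description and not a fair comparison with all genes. A further 10 of 12 tests were of MAN2B1, ASAH1, GLB1 and GRN, which were chosen for the size of this difference, so their values are a description. The IDUA response was -2.61 in IMR-32 and -1.88 in SH-SY5Y relative to BE2C, and 0.74 in SH-SY5Y relative to IMR-32. The TFEB response was -0.98 and 1.67 relative to BE2C in the same order, and 2.64 in SH-SY5Y relative to IMR-32. For MAN2B1 these values were -0.75, 0.58 and 1.34, and for GLB1 they were -0.38, 0.43 and 0.81. Relative to BE2C, the log2 fold change in IMR-32 was lower for MITF (-0.98), ASAH1 (-1.03), GRN (-0.69) and ARSA (-0.39). Relative to IMR-32, that in SH-SY5Y was higher for MITF (1.54), ASAH1 (1.27), GRN (0.79) and ARSA (0.69). Relative to BE2C, that in SH-SY5Y was lower for GAA (-0.68), ATP6V0A1 (-0.57) and IDS (-0.49). In the pairs with BE2C, line and length of treatment cannot be told apart.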

How the results depend on the processing

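No value changed sign in any alternative while called. With the adjusted p alone as the limit, at 24 h 25 genes were higher in BE2C (2 lower), 29 in IMR-32 (1 lower) and 28 in SH-SY5Y (3 lower), 29 at 7 days in BE2C (3 lower), and at 5 days 23 in IMR-32 (8 lower) beside 31 in SH-SY5Y (3 lower), and from 24 h to the longer time 22 (5 lower), 8 (12 lower) and 11 (3 lower). Under that limit 23.7%, 17.5% and 26.4% of all genes were higher and 23.0%, 15.6% and 22.8% lower at 24 h, 35.3%, 25.5% and 32.9% higher and 35.8%, 25.6% and 32.5% lower at the longer time, and 29.3%, 16.6% and 22.2% higher and 30.0%, 17.8% and 21.4% lower from 24 h to the longer time. DESeq2 moved the BE2C median at 24 h from 0.28 to 0.21. Library size alone left 2 genes lower from 24 h to 5 days in IMR-32, and with RLE or library size alone 2 genes differed between IMR-32 and BE2C at 24 h. Leaving out single libraries gave 9 to 13 genes higher at 24 h in BE2C, 7 to 11 in IMR-32 and 11 to 14 in SH-SY5Y, then 19 to 20, 13 to 16 and 15 to 17 at the longer time. From 24 h to the longer time it gave 8 to 10, 2 to 5 and 4 to 7 higher, and 1 to 6 lower in IMR-32. Leaving out a replicate of every group gave 0 to 2, 0 to 1 and 0 to 1 genes whose response differed at 24 h and 11 to 17, 10 to 15 and 11 to 16 at the longer time, for IMR-32 against BE2C, SH-SY5Y against BE2C and SH-SY5Y against IMR-32. Over 396 values of single genes, 121 of them called, leaving out 1 library ended 21 different calls at least once and gave 16 (61 and 32 of 3960 fits). DESeq2 ended 4 and gave 1, RLE ended 4 and gave 1, library size alone ended 4 and gave 6, no filter ended 7, and leaving replicate 5 out of all IMR-32 groups ended 6 and gave 1. Most lay near the fold limit, and the causes were not tested. With the replicate block, the number of the 44 genes called was the same in all 9 comparisons, such as 11 higher and 1 lower in IMR-32 at 24 h, and it changed no call of a single gene.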
